A study of Mus musculus with 12 samples.

Results

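Slc18a2, Ephx2, Cnmd, Tenm4, Spsb1 and Smpx were grouped because their levels in mouse ovaries with altered Foxl2 differed from wild type in the same direction both in the adult and 3 days after birth. They are 6 of the 16553 genes measured at both ages, among 19938 genes in the adult table and 18194 in the P3 table. They were chosen by their adult mutant against wild-type values and their P3 KO against wild-type values, so these values are described below without a test. In both contrasts, 5 of the 6 were lower in the Foxl2-altered ovaries and Smpx was higher. On the probe set used for each gene, the groups did not overlap at either age. Of all genes, 20.6% lay wholly lower and 19.3% wholly higher in the adult, and 19.7% and 19.3% at P3.

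The 12 arrays fall into 5 groups. At 8 weeks of age, 3 mutant ovaries carrying the Foxl2 flox/flox and CreEBD alleles and 3 wild-type testes were set beside 2 wild-type ovaries, each array from a single perfused animal. At postnatal day 3 (P3), 2 arrays of Foxl2 KO ovaries were set beside 2 arrays of wild-type ovaries, each from a pool of more than 10 females that were not perfused. The labels used here give neither the driver of the Cre nor the time of deletion, and no strain. The P3 pools and the adult animals differ in array type, unit, perfusion and amount of RNA (1 µg at P3, 300 ng in the adult), so the ages are set side by side and not tested against each other. With 2 or 3 arrays per group, the precision is limited by the number of arrays. Within whole ovaries, fewer cells of a type and less RNA per cell cannot be told apart.

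FOXL2 is a forkhead transcription factor of ovarian granulosa cells, the somatic cells that surround and nourish the oocyte. In adult mice its loss from the ovary is known to be followed by expression of testis genes, among them genes of Sertoli cells, which support the germ cells there. The 6 genes have unrelated biochemical roles. Slc18a2 encodes the transporter that loads serotonin, dopamine, noradrenaline and histamine into vesicles. Ephx2 encodes soluble epoxide hydrolase, which turns epoxy fatty acids into diols, and Cnmd encodes chondromodulin, a glycoprotein of cartilage that inhibits blood vessel growth. Tenm4 encodes a teneurin, a large transmembrane adhesion protein best known from the brain. Spsb1 encodes an adapter that brings substrates, such as inducible nitric oxide synthase, to a ubiquitin ligase. Smpx encodes a small cytoskeletal protein of striated muscle, which is also needed in the inner ear.

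Foxl2 itself was lower in the Foxl2-altered ovaries at both ages. On the adult log2 scale (RMA, a normalised log2 intensity summarised over the probes of a probe set), it read 5.81, 6.04 and 5.73 in the mutant ovaries, 5.22, 5.38 and 5.31 in the testes, and 8.75 and 8.81 in the wild-type ovaries. At P3 its signal (MAS5, a linear scaled intensity) was 186.4 and 153.7 in the KO pools and 814.5 and 829.9 in the wild-type pools. Where its probe sets lie relative to the deleted part was not examined. Array medians ran between 4.83 and 4.94 in the adult and between 116.6 and 126.8 at P3. The tissue labels were set against marker lists, each summed over the linear levels of its genes. Spermatid markers summed to between 16716 and 18145 in the testes and to between 98.4 and 122 in the adult ovaries. Sertoli markers summed to between 6714 and 7561 in the mutant ovaries, against 741 and 1153 in the wild-type ovaries, and 10 of 11 were called higher. Granulosa markers summed to between 4224 and 5574 in the mutant ovaries, against 7841 and 12515 in the wild-type ovaries, with 7 of 11 called lower and 1 higher. Among the P3 pools the granulosa sums overlapped, at 18665 and 19639 in KO against 18728 and 20033 in wild type, and most of each sum was Amhr2, at 15146.9 and 16301.1 in KO against 10933.6 and 11577.3 in wild type. Of the 11 granulosa markers, 3 (Foxl2, Nr5a2 and Hsd17b1) were called lower in the P3 KO pools and 0 higher by limma (6 lower and 1 higher at an unadjusted p under 0.05), with a median difference of -1.40. Sertoli marker sums at P3 were 23384 and 23549 in KO against 18773 and 19177 in wild type. The largest part of each was Wt1, at 9576.0 and 9841.8 in KO against 6451.8 and 7144.1 in wild type. Of the 12 Sertoli markers, 1 was called higher and 0 lower by limma (6 higher and 1 lower at an unadjusted p under 0.05). Of all genes, 9.55% were called higher and 6.66% lower in the mutant ovaries, and 0.137% and 0.187% in the P3 KO pools. The part of these marker levels in the members' values was not tested.

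The starts of the genes were compared in windows of 250 bases before to 50 bases after the annotated start, taken from RefSeq on GRCm38.p6. Of the 6 genes, 5 had a window, with 2 windows for Tenm4. Slc18a2 (chr19:59260628-59260927, plus strand) and Smpx (chrX:157698723-157699022, plus strand) are printed because they move in opposite directions yet hold the same short motif, AGATAA or its reverse complement TTATCT, shown in capitals.
Slc18a2: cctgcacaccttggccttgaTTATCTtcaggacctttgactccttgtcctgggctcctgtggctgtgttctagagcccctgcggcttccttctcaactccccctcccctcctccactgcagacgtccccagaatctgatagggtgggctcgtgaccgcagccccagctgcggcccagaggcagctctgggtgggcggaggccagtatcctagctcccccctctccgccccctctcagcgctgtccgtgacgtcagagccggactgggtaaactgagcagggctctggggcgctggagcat
Smpx: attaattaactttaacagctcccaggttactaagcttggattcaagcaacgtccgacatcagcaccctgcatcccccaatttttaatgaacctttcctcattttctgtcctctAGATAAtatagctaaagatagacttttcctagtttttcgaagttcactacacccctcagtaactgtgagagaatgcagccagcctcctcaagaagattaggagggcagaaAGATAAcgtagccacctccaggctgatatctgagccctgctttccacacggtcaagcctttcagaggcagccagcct
The motif stands once in the Slc18a2 window, at positions -230 to -225, counted from the annotated start. Within Smpx it stands at -137 to -132 and at -27 to -22. Of all 32851 windows, 11.2% hold AGATAA on either strand.
Cnmd (chr14:79662134-79662433, minus strand) and Spsb1 (chr4:149954957-149955256, minus strand) are printed to show how far the starts of the genes differ in CG dinucleotides, the capitals here.
Cnmd: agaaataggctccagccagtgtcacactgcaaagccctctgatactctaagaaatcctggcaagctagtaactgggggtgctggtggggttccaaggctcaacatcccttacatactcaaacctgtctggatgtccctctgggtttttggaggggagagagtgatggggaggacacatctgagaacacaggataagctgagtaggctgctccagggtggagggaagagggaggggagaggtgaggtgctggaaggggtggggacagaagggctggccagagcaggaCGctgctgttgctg
Spsb1: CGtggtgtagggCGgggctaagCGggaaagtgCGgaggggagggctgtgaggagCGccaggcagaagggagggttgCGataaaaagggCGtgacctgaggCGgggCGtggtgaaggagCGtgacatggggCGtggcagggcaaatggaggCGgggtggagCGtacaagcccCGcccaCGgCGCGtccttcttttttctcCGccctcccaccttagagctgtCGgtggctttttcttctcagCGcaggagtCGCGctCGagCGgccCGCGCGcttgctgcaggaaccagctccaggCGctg
Cnmd has 1 CG dinucleotide in its window at 56.0% GC, and 14.1% of all windows hold as few. Spsb1 has 28 at 66.3% GC, and 87.1% of all windows hold as many or fewer. The median window holds 7 and has 52.7% GC, and the genes with a window ranged widely around it. Slc18a2 has 12, Smpx 5, and the Tenm4 windows 6 and 12. The forkhead motif GTAAACA, its shorter form TAAACA (which every GTAAACA contains), the nuclear receptor motif AAGGTCA and TATAAA were each found in 0 of the 6 windows on either strand. These letters occur in 3.65%, 13.4%, 4.72% and 13.6% of all windows in that order. CCAAT occurs in the Smpx window alone among the 6, against 37.4% of all windows. A match or its lack describes these letters in these windows and nothing about a factor.

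In the adult ovary, Slc18a2 had the lowest mutant minus wild-type difference of all 19938 genes, but it ranked 31 without wild-type ovary 1, where Ephx2 ranked 1. The vesicle transporter read 4.65, 4.45 and 4.15 in the mutant ovaries, against 9.88 and 7.23 in the wild-type ovaries. The difference was -4.14 ± 0.56 (log2, SE, n = 3 and 2), and most of its spread lay in the wild-type ovaries. Ephx2, the epoxide hydrolase, read 5.93, 7.21 and 6.52 in the mutant ovaries and 9.68 and 10.95 in the wild-type ovaries, a difference of -3.76 ± 0.40 that ranked 5 among the lower genes. For this gene the mutant ovaries spread as widely as the wild-type ovaries.

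For Cnmd the adult levels were 5.22, 5.21 and 4.66 in the mutant ovaries, against 9.40 and 6.74 in the wild-type ovaries. The difference of -3.04 ± 0.57 (rank 13) had an SE as wide as that of Slc18a2, and the wild-type ovaries were far apart for both genes. Tenm4 was tighter, at 6.93, 6.81 and 6.63 in the mutant ovaries and 9.56 and 8.99 in the wild-type ovaries, with a difference of -2.48 ± 0.17 (rank 23). On this probe set, the Tenm4 levels of the mutants were close to each other. Spsb1 read 7.63, 7.65 and 7.26 in the mutant ovaries against 9.67 and 8.39 in the wild-type ovaries, and its difference of -1.51 ± 0.29 (rank 140) was the smallest of the set. Spsb1 also left the narrowest gap between the groups, with wild-type ovary 2 next to the mutants. Smpx was the only gene of the 6 that was higher: 7.90, 7.85 and 7.91 in the mutant ovaries, against 5.13 and 4.56 in the wild-type ovaries, a difference of 3.04 ± 0.17 that ranked 61 among the higher genes. Its 3 mutant levels lay closer together than those of any other gene of the set.

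**Figure D1:**
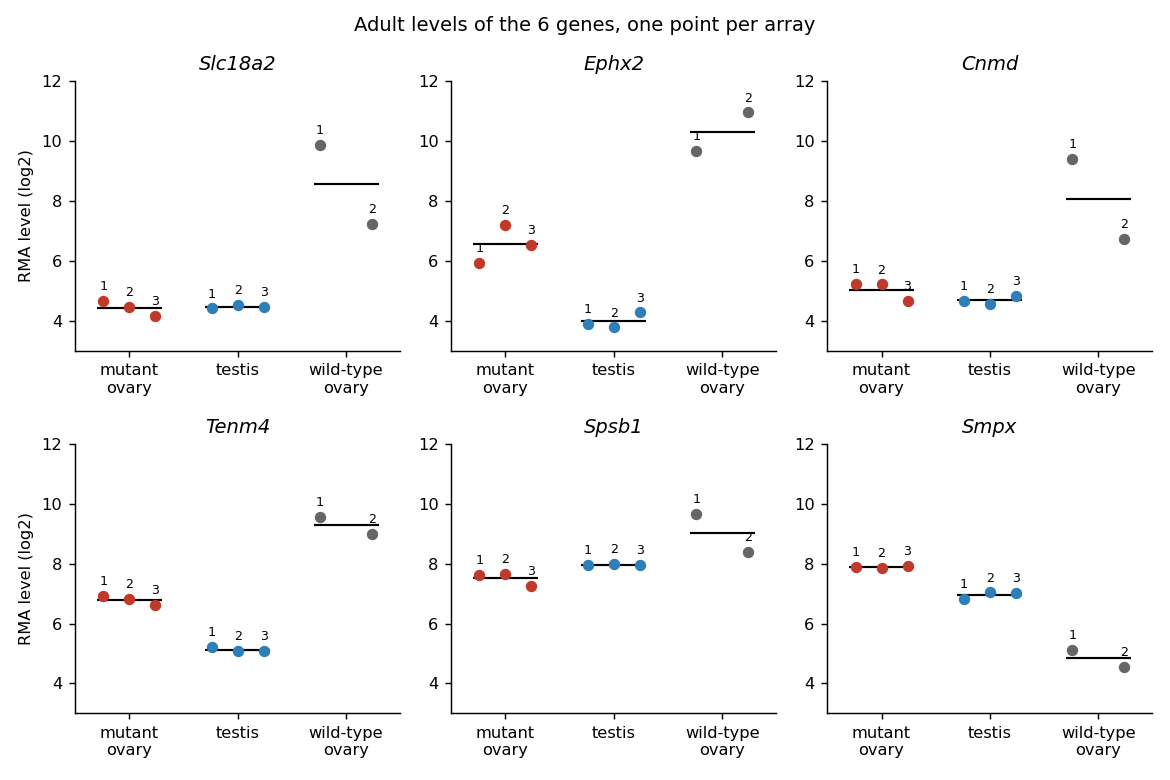
Adult levels (RMA, log2) of Slc18a2, Ephx2, Cnmd, Tenm4, Spsb1 and Smpx in each mutant ovary, testis and wild-type ovary, where each point is an array with its replicate number and each bar is a group mean. Smpx is the only gene of the 6 that is higher in the mutant ovaries, at 7.85 to 7.91, and Slc18a2 and Cnmd have the widest gap between the 2 wild-type ovaries.

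As the groups chose the genes, their separation is not a result. For comparison, 20.6% of the 19938 adult genes lay wholly lower in the mutant ovaries and 19.3% wholly higher. At an adjusted p under 0.05 (limma, Benjamini-Hochberg over all genes), 6.66% of genes were called lower in the mutant ovaries and 9.55% higher.

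At P3 the same directions were seen in pools of young ovaries. Slc18a2 gave signals of 38.6 and 39.0 in the KO pools, against 322.3 and 274.2 in the wild-type pools, so KO signals averaged 13.0% of wild type. The log2 difference, computed on signal plus 16, was -2.52 ± 0.31 (SE, n = 2 and 2). The KO signals of this transporter were nearly equal in both pools. Ephx2 gave 389.6 and 454.0 in the KO pools and 1875.1 and 1932.6 in the wild-type pools, or 22.2% of wild type (log2 difference -2.14 ± 0.15). Cnmd gave 501.0 and 643.5 in KO against 2437.2 and 2300.9 in wild type, or 24.2% (-2.03 ± 0.16). Unlike in the adult, wild-type Cnmd and Ephx2 signals at P3 were close between the arrays. Tenm4 gave 477.2 and 376.0 in the KO pools against 1436.1 and 1183.0 in the wild-type pools, or 32.6% (-1.59 ± 0.19). Spsb1 gave 868.9 and 909.5 in KO against 2094.0 and 2801.3 in wild type, or 36.3% (-1.43 ± 0.17). The muscle gene Smpx went the other way, with 2028.3 and 2145.0 in the KO pools against 667.4 and 577.5 in the wild-type pools, a ratio of 3.35 and a log2 difference of 1.72 ± 0.14.

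Among 18194 P3 genes the 6 ranked 18 (Slc18a2), 33 (Ephx2), 39 (Cnmd), 117 (Tenm4) and 175 (Spsb1) on the lower side and 49 (Smpx) on the higher side. Of the 5 lower genes, Slc18a2 had the lowest value and Tenm4 and Spsb1 the last places at both ages with all arrays. That adult order changed without wild-type ovary 1, to Ephx2 (-4.40), Slc18a2 (-2.82), Tenm4 (-2.19), Cnmd (-1.71) and Spsb1 (-0.87). The P3 groups chose the genes as well. Over the whole P3 table, 19.7% of genes lay wholly lower in KO and 19.3% wholly higher, and 0.187% were called lower and 0.137% higher at the same threshold.

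**Figure D2:**
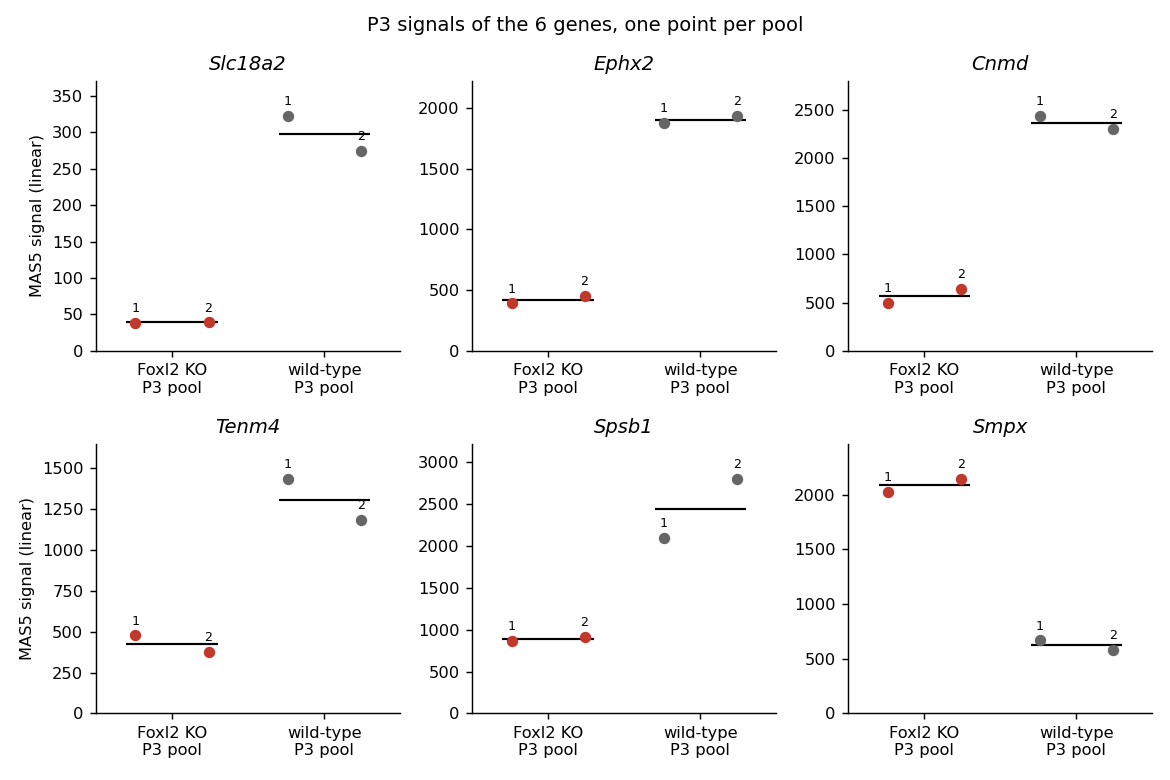
P3 signals (MAS5, linear) of Slc18a2, Ephx2, Cnmd, Tenm4, Spsb1 and Smpx in each KO pool and each wild-type pool, with each point an array. KO signals of Slc18a2 averaged 13.0% of wild type and those of Smpx 335%.

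Among the 16553 genes on both tables, 25 passed the threshold at both ages, 24 of them in the same direction (12 lower, 12 higher). Ranked by the smaller of their differences at the 2 ages, the 6 genes stood at positions 2, 8, 9, 11, 12 and 13 of these 24. Spsb1 was the last of them at 1.43, and the next gene below was Hsd3b1, a steroid dehydrogenase, at 1.41. The rule gave no size threshold, so this place is only a description. The shared count rests on the P3 calls: by limma it was 0 without either KO pool and 0 without an intensity trend, 7 without wild-type pool 1, 2 without wild-type pool 2, 11 with probe sets averaged, 77 with the filter on low values and 125 with the replicate block. Beside these counts of 0, between 1119 and 1736 P3 genes had an unadjusted p under 0.05. The remaining gene of the 25, Smoc1, a secreted matrix protein, was lower in the mutant adult ovary and higher in the KO P3 ovary.

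**Figure D3:**
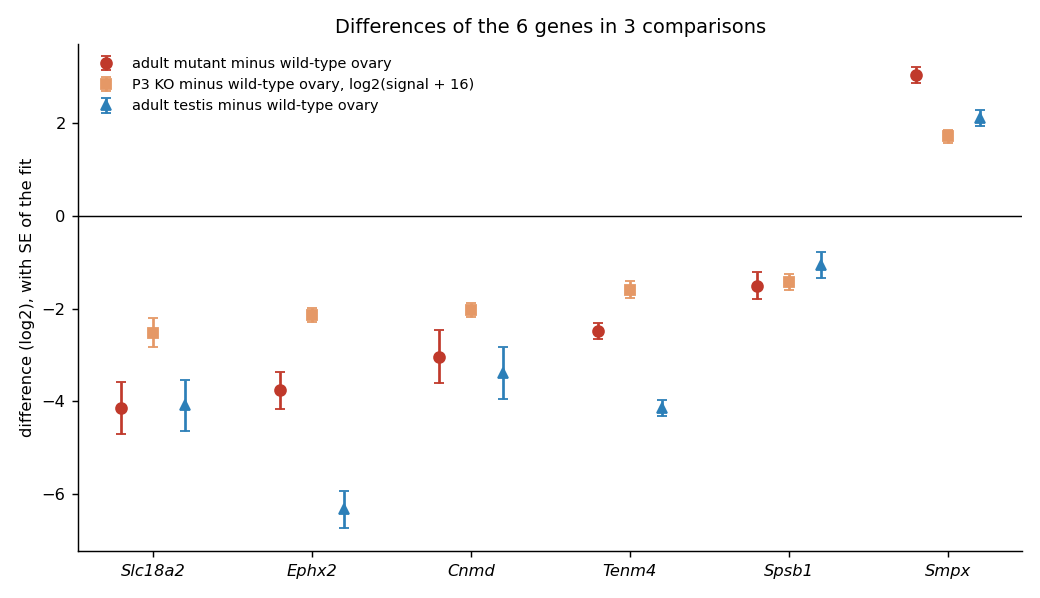
Log2 difference with its SE for each of the 6 genes in the comparisons of mutant with wild-type ovaries, P3 KO with P3 wild-type ovaries, and testes with wild-type ovaries. The first 2 comparisons chose the genes, and Smpx lies above 0 in each comparison.

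Testes were not used to choose the genes, though the wild-type ovaries they were set against were. Of the 6, Slc18a2, Ephx2, Cnmd, Tenm4 and Spsb1 were lower in testes than in wild-type ovaries and Smpx was higher, each past the threshold. Over all adult genes, 35.9% were called lower and 24.4% higher in testes, so a call here is common. Ephx2 read 3.89, 3.78 and 4.28 in the testes, the rank 2 difference on the lower side at -6.33 ± 0.40 (limma adjusted p = 1.98e-07 over all genes). Tenm4 read 5.21, 5.09 and 5.08 in the testes (-4.15 ± 0.17, limma adjusted p = 7.55e-09). Both fell below every mutant and wild-type ovary. Slc18a2 read 4.41, 4.53 and 4.47 in the testes (-4.09 ± 0.56, limma adjusted p = 9e-05) and Cnmd read 4.67, 4.55 and 4.83 (-3.39 ± 0.57, limma adjusted p = 0.000413). The testis levels of both genes lay close together and far under the wild-type ovaries. Smpx read 6.81, 7.04 and 7.02, above both wild-type ovaries (2.11 ± 0.17, limma adjusted p = 1.3e-06). Spsb1 read 7.95, 7.99 and 7.96 in the testes (-1.06 ± 0.29, limma adjusted p = 0.00946), and this call was lost without wild-type ovary 1, at -0.42 (limma adjusted p = 0.0514).

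Set against the testes, the genes of the set fell into 2 kinds by their calls in the mutant ovaries. Ephx2, Tenm4 and Smpx were higher in the mutant ovaries than in the testes, while no difference was called for Slc18a2, Cnmd and Spsb1. The mutant ovaries were used to choose the genes. Across all adult genes, 37.5% were called higher and 24.3% lower in mutant ovaries than in testes. The difference was 2.57 ± 0.36 for Ephx2 (limma adjusted p = 8.4e-05), 1.67 ± 0.16 for Tenm4 (limma adjusted p = 3.47e-06) and 0.93 ± 0.15 for Smpx (limma adjusted p = 0.000263). No Ephx2, Tenm4 or Smpx level in a mutant ovary overlapped a testis level, though the share of all genes of which this holds was not counted. For Slc18a2 it was -0.05 ± 0.50 with a 95% interval of -1.17 to 1.06 (limma adjusted p = 0.936). Cnmd differed by 0.35 ± 0.51, with an interval of -0.79 to 1.49 (limma adjusted p = 0.59). Spsb1 differed by -0.45 ± 0.26, with an interval of -1.04 to 0.13 (limma adjusted p = 0.161). These intervals still allow differences of more than 1 log2 unit in size. Their width rests on a spread shared by all adult groups, so that of the wild-type ovaries is part of it. For Slc18a2 the SD was 0.25 in mutant ovaries and 0.06 in testes, against 1.87 in wild-type ovaries. For Cnmd these were 0.32, 0.14 and 1.89. Every Spsb1 level in the mutants lay below every testis level, and with only those groups in the fit its limma adjusted p was 0.00532.

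Put in order of group mean, Ephx2 and Tenm4 were highest in wild-type ovaries, intermediate in mutant ovaries and lowest in testes, with each neighbouring pair apart. Smpx ran highest in mutant ovaries, then testes, then wild-type ovaries, again with each pair apart. The share of all genes lying apart from the testes was not counted, so this separation is only a description. For Slc18a2 and Cnmd, wild-type ovaries stood above mutant ovaries and testes, and no difference was called between those last groups. Spsb1 was highest in wild-type ovaries, then testes, then mutant ovaries, and the last step was not called.

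Slc18a2, Ephx2, Cnmd and Smpx are measured by a single probe set in each table. Spsb1 and Tenm4 have more, and their probe sets disagreed in size. The other adult Tenm4 probe set was lower by -0.26 (log2 difference), against -2.48 for the probe set used. At P3 the other Tenm4 probe sets gave -0.94 and -0.64, both with the KO pools wholly lower. The 3 other Spsb1 probe sets at P3 gave 0.01, -0.20 and 0.54 with overlapping groups, so the lower Spsb1 at P3 rests on the probe set with the highest signal. Averaged over the probe sets of each gene, Tenm4 was -1.37 in the adult and -1.05 at P3, and Spsb1 was -0.27 at P3.

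The 2 adult wild-type ovaries differed widely for some of the genes. In wild-type ovary 1, Slc18a2 read 2.65 log2 units higher than in the other, a gap as large in 0.16% of genes, and Cnmd was 2.67 higher, a gap as large in 0.15%. The median gap over all genes was 0.21 in size. Spsb1 was 1.28 higher in ovary 1 (1.97% of genes), and Ephx2 went the opposite way at -1.27 (2.01%). Tenm4 and Smpx differed by 0.57, as 12.1% of genes did, and Foxl2 by -0.06. The transporter and the cartilage glycoprotein were thus the most uneven of the set between these animals.

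Some marker lists also differed between these ovaries. Of the oocyte markers, 9 of 10 were higher in wild-type ovary 1, with a median gap of 2.05, and of the granulosa markers 10 of 11 were (median 0.70). All 4 corpus luteum markers were lower in ovary 1 (median -1.52), as were all 6 endothelial markers (median -0.65). The summed oocyte level was 3054 in wild-type ovary 1 and 734 in wild-type ovary 2, and the summed corpus luteum level was 1556 and 5484. The part of these markers in the gap was not tested, and the share of all genes higher in either ovary was not counted. In mutant minus wild-type ovaries, 0 of the 10 oocyte markers were called by limma (1 higher at an unadjusted p under 0.05). Their median difference was 0.52. Without wild-type ovary 1, the mutant minus wild-type difference of Slc18a2 was -2.82 and that of Cnmd -1.71. Without wild-type ovary 2 the same differences were -5.47 and -4.37. Spsb1 moved likewise, to -0.87 without ovary 1 and -2.16 without ovary 2. Tenm4 ran between -2.76 and -2.19, Ephx2 between -4.40 and -3.13 and Smpx between 2.76 and 3.33 over all single arrays left out. All 6 kept their direction.

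**Figure D4:**
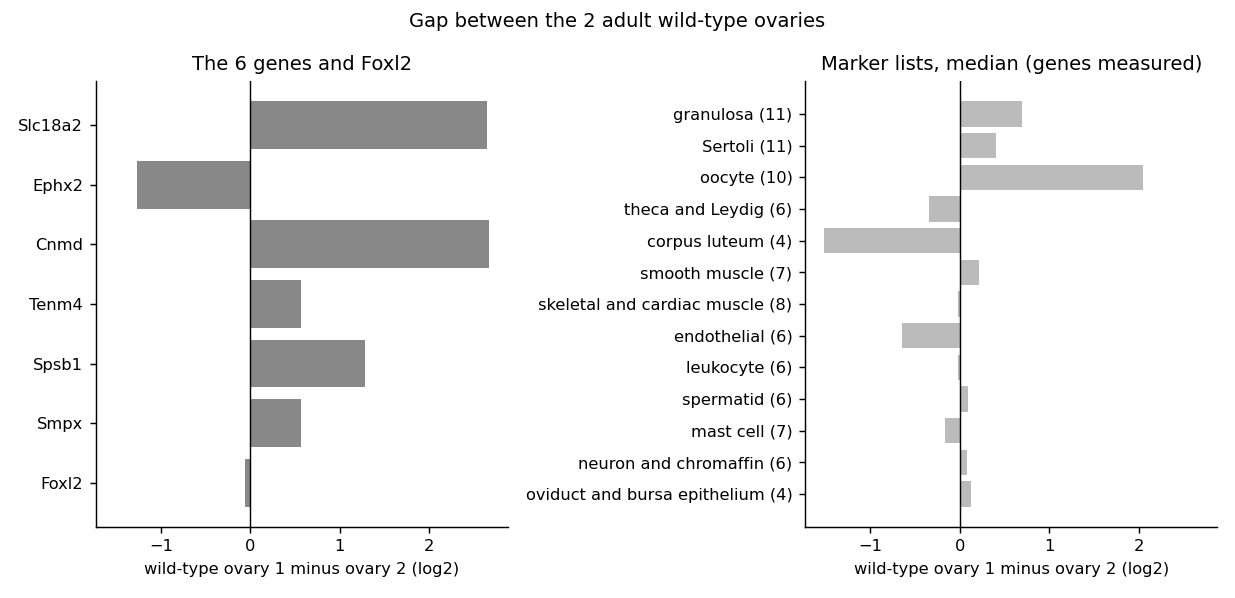
Difference between wild-type ovary 1 and wild-type ovary 2 (log2) of the 6 genes and Foxl2 and of the marker lists. Cnmd and Slc18a2 lie highest among the genes, at 2.67 and 2.65, and corpus luteum markers lie lowest, with a median of -1.52.

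Smpx belongs to striated muscle, so muscle markers were read beside it. Skeletal and cardiac muscle markers summed to 243, 296 and 281 in the mutant ovaries and 284 and 274 in the wild-type ovaries. Of these 8 markers, 0 were called in either direction by limma, also at an unadjusted p under 0.05. In the P3 KO pools 0 of 8 were called by limma, with 1 higher and 1 lower at an unadjusted p under 0.05. Tnni3, a cardiac muscle gene outside this list, was among the 24 shared genes, higher by 0.89 in the adult and 1.76 at P3. Smooth muscle markers went the opposite way to Smpx in the adult, with 7 of 7 called lower in the mutant ovaries, against 6.66% of all genes. At P3 they did not, with 0 of 7 called by limma (1 higher and 1 lower at an unadjusted p under 0.05) and a median of 0.01. Slc18a2 is expressed by mast cells, neurons and chromaffin cells elsewhere in the body. Mast cell markers summed to 353, 358 and 730 in the mutant ovaries, against 159 and 269 in the wild-type ovaries, with 1 of 7, Hdc, called higher. Neuron and chromaffin markers summed to 526, 383 and 675 in the mutant ovaries against 187 and 169 in the wild-type ovaries, with 1 of 6, Tubb3, called higher. Hdc and Tubb3 made up most of these sums in the mutant ovaries, and the median differences of the lists were -0.14 and 0.04. The part of these cells in the Slc18a2 values was not tested.

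Genes with a like pattern were sought over all 12 arrays and 16553 genes by the root mean square difference of levels centred within each table. The pattern includes the contrasts that chose the genes, so the measure is descriptive. Slc18a2 and Cnmd were each other's nearest gene, at 0.39. Their further neighbours were Apoa1 (0.66), an apolipoprotein, and Foxl2 (0.69) for Slc18a2, and Prss23 (0.55) and Car14 (0.56) for Cnmd. Nearest to Ephx2 were Nr5a2 (0.62), a nuclear receptor of granulosa cells, Hsd17b1 (0.66), which makes oestradiol, and Akr1c14 (0.68). Tenm4 lay nearest to Ptges (0.33), a prostaglandin E synthase, Fst (0.36), which encodes the activin antagonist follistatin, and Fam13a (0.41). Spsb1 lay nearest to Spin2c (0.23), Emilin2 (0.26) and Bcl11a (0.27). Smpx lay nearest to Slc6a14 (0.26), an amino acid transporter, Spire2 (0.39) and Slc41a2 (0.44). Each distance is to be read against the gene's own root mean square, which was 1.72 for Slc18a2, 2.13 for Ephx2, 1.40 for Cnmd and Tenm4, 0.70 for Spsb1 and 1.10 for Smpx.

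The relatives and partners of each gene were read in 6 lists, beside a median of -0.02 over all adult genes in mutant minus wild-type ovaries. Of all adult genes, 9.55% were called higher and 6.66% lower in this contrast. Together, 16 of the 95 measured relatives were called higher and 10 lower. Of 17 measured genes of monoamine handling, 4 were called higher and 1 lower, with a list median of 0.12. Hdc, which makes histamine, read 8.19, 8.16 and 9.39 in the mutant ovaries and 6.51 and 7.61 in the wild-type ovaries (1.52 ± 0.38, limma adjusted p = 0.0211). Its call was lost without wild-type ovary 1 (0.97). Slc6a4, the serotonin reuptake transporter, read 6.29, 6.38 and 7.31 in the mutant ovaries against 5.50 and 4.91 in the wild-type ovaries (1.46 ± 0.29, limma adjusted p = 0.00628). Slc18b1, a vesicular polyamine transporter, was higher by 1.10 ± 0.15 (limma adjusted p = 0.000603). These genes rose where Slc18a2 was lower, and the 1 gene of the list called lower changed in the direction of Slc18a2. The sister vesicular transporters Slc18a1 (0.12) and Slc18a3 (-0.21) were not called.

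Enzymes of epoxides and epoxy fatty acids gave 1 call higher and 0 lower among 17 (list median 0.03, limma; 5 higher and 1 lower at an unadjusted p under 0.05). The call was Cyp4f13, a fatty acid hydroxylase (0.57 ± 0.14, limma adjusted p = 0.0181), which was lost when wild-type ovary 1 (0.51) or mutant ovary 3 (0.50) was left out. Microsomal epoxide hydrolase, Ephx1, read 10.14, 10.71 and 10.82 in the mutant ovaries and 10.16 and 9.16 in the wild-type ovaries (0.90 ± 0.27, limma adjusted p = 0.0506). Without wild-type ovary 1 it was 1.40 and past the threshold. Ephx3 differed by 0.14 and Ephx4 by 0.51 without a call. Of 9 BRICHOS domain genes, the family of Cnmd, 1 was called in each direction (median -0.02). Itm2a read 7.48, 7.56 and 7.06 in the mutant ovaries against 8.49 and 8.42 in the wild-type ovaries (-1.09 ± 0.18, limma adjusted p = 0.00208). Bricd5 was higher by 0.55 ± 0.14 (limma adjusted p = 0.0202), a call lost when wild-type ovary 2 (0.45) or mutant ovary 1 (0.49) was left out. The closest relative of Cnmd, tenomodulin (Tnmd), differed by 0.13 and was not called.

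Of 13 teneurins and their partners, 5 were called higher and 1 lower (median 0.23). Flrt1, a membrane partner of latrophilins, read 8.14, 8.03 and 8.42 in the mutant ovaries and 6.58 and 6.76 in the wild-type ovaries (1.53 ± 0.15, limma adjusted p = 9.58e-05). Adgrl1, the latrophilin receptor of teneurins, was higher by 0.98 ± 0.13 (limma adjusted p = 0.000434) and Flrt2 by 0.84 ± 0.17 (limma adjusted p = 0.00732). Tenm3 was also higher, by 0.52 ± 0.15 (limma adjusted p = 0.0373), but 8 alternatives ended its call, among them leaving out either wild-type ovary (0.51 and 0.54), mutant ovary 1 (0.56) or mutant ovary 3 (0.39). Tenm1 (0.04) and Tenm2 (0.28) were not called, so none of the other teneurins was called lower with Tenm4.

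SPSB and SOCS box genes were the list with most calls lower, 6 of 23, with 3 higher (median -0.21). Nos2, the inducible nitric oxide synthase that SPSB proteins mark for degradation, read 4.51, 4.61 and 3.90 in the mutant ovaries against 6.95 and 5.65 in the wild-type ovaries (-1.96 ± 0.33, limma adjusted p = 0.0025). Socs2, a suppressor of growth hormone signalling, read 7.95, 8.31 and 8.19 in the mutant ovaries against 10.33 and 9.66 in the wild-type ovaries (-1.85 ± 0.20, limma adjusted p = 0.000143). Rnf7, a RING subunit of the ligase, was higher by 1.07 ± 0.25 (limma adjusted p = 0.0166), a call lost without wild-type ovary 1 (0.94). Spsb4 was lower by -0.61 ± 0.18 (limma adjusted p = 0.0411), but 6 alternatives ended its call: leaving out wild-type ovary 2 (-0.50), mutant 2 (-0.44) or mutant 3 (-0.67), median centring (-0.62), the replicate block (-0.64), and only those groups in the fit. Spsb2 (-0.06) and Spsb3 (-0.13) were not called.

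Muscle cytoskeleton genes gave 2 calls higher and 1 lower among 16 (median -0.01). Myoz2, a Z-disc protein of striated muscle, read 6.65, 6.31 and 5.83 in the mutant ovaries against 3.61 and 3.36 in the wild-type ovaries (2.78 ± 0.23, limma adjusted p = 2.27e-05). Its change was the largest in the list in the direction of Smpx. Actn3, a muscle actinin, was higher by 1.02 ± 0.24 (limma adjusted p = 0.0165), a call lost without wild-type ovary 2 (0.93), and Des, the filament protein desmin, was lower by -1.16 ± 0.22 (limma adjusted p = 0.00498). Des is also a smooth muscle marker. With only mutant and wild-type ovaries in the fit, the calls of Hdc, Cyp4f13, Bricd5, Tenm3, Spsb4, Rnf7 and Actn3 were all lost, at limma adjusted p-values between 0.0617 and 0.136.

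**Figure D5:**
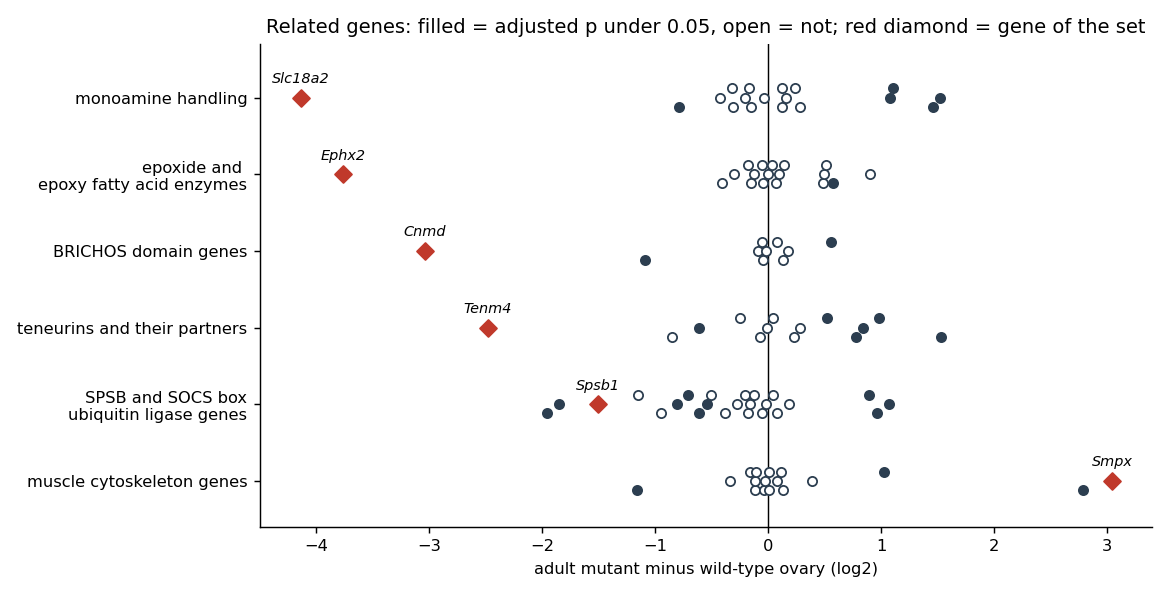
Log2 difference between mutant and wild-type adult ovaries of every measured gene in the 6 lists of relatives and partners, with the gene of the set as a red diamond. In 4 of the lists the gene of the set lies lower than every relative, Spsb1 at -1.51 lies above Nos2 and Socs2 at -1.96 and -1.85, and Smpx and Myoz2 stand together at the higher end of the muscle list, at 3.04 and 2.78.

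At P3 none of the 92 measured relatives passed the threshold in limma (10, or 10.9%, had an unadjusted p under 0.05). Over all P3 genes, 0.324% passed the threshold and 9.53% had an unadjusted p under 0.05, so the relatives did not stand out by these shares. Slc6a4 gave signals of 195.2 and 341.3 in the KO pools and 10.1 and 120.7 in the wild-type pools (log2 difference 2.20 ± 0.77, limma adjusted p = 0.417). Socs2 gave 2839.5 and 2555.7 in the KO pools and 5549.4 and 4508.1 in the wild-type pools (-0.89 ± 0.14, limma adjusted p = 0.0863). Hdc gave 514.5 and 564.1 in the KO pools and 283.4 and 281.8 in the wild-type pools (0.89). In these 3 genes the groups did not overlap and the direction was that of the adult. Other relatives did so as well. Such separation is common, as 19.7% of all P3 genes lay wholly lower in KO and 19.3% wholly higher. Myoz2 was uneven, at 4.6 and 60.8 in the KO pools and 4.3 and 8.6 in the wild-type pools, so the adult difference of this muscle gene has no counterpart past the spread at P3.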

How the data were processed

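Gene expression was measured on 12 arrays. The adult values are log2 intensities that the authors deposited as RMA values. The submitters' processing notes name Affymetrix Expression Console for them. The P3 values are linear intensity signals that the authors deposited as MAS5 signals, per the submitters' processing notes, although the labels' protocols describe labelling for another array type. No detection calls were used.

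Probe sets were named from the platform annotation. Of 35557 adult probe sets, 21789 had a single gene, and of 45101 P3 probe sets, 34958 had one. The probe set with the highest mean stood for its gene. Groups were compared with limma 3.58.1 in R 4.3.3 (lmFit, eBayes with an intensity trend) on the log2 scale, P3 after adding 16 to the signal, so P3 differences of dim genes are understated. The 8 adult arrays shared a fit and the 4 P3 arrays another. P-values were two-sided and adjusted by Benjamini-Hochberg over all genes of a table, and the 12 values of the set against testes are part of that family. P-values at P3 measure the spread between pools.

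The 6 genes and all lists were chosen with earlier results of these data known. Among relatives, the text names the called genes with the largest change, at most 3 per list and comparison, and the family members nearest by name. The alternatives tried were other probe set rules, a filter on low values, quantile normalization, median centring, other pseudocounts, no trend, only the groups compared, a replicate block, and leaving out each array.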

Additional observations from a re-analysis of the deposited data

Results flagged for a closer look

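Among 50 genes named above, 6 lay apart between Foxl2-altered and wild-type ovaries at both ages but in opposite directions. Over all 16553 genes on both tables, 1086 (6.56%) did so. Many of the named genes were picked for a call or pattern in these contrasts, Smoc1 among them, so the 2 counts cannot be compared. The difference between the ages was not tested, since the tables differ in array type and unit. Smoc1 passed the threshold at both ages. It read 8.13, 8.12 and 7.99 in the mutant ovaries and 9.54 and 9.14 in the wild-type ovaries (log2 difference -1.26, limma adjusted p = 0.000197). At P3 its signal was 2673.5 and 2802.5 in the KO pools against 648.9 and 717.3 in the wild-type pools (1.98, limma adjusted p = 0.00865). The other 5 were relatives of the set and were not called at P3. Nos2 was -1.96 in the adult and 0.39 at P3. Slc18b1 was 1.10 in the adult and -0.24 at P3. Spsb4 was -0.61 in the adult and 0.16 at P3, Cyp4f13 was 0.57 and then -0.17, and Tenm3 was 0.52 and then -0.29. The 6 genes of the set could not be among them, since they were chosen for the same direction at both ages.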

How the results depend on the processing

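Of 287 values of the 6 genes under the alternatives, 269 were counted as kept and 0 reversed. Against testes, a kept value had the same direction and call. In the contrasts that chose the genes (70 adult and 71 P3 values), a kept value had the same direction and moved by less than the spread. Calls were not counted there, and P3 calls were lost under some settings, as without an intensity trend. Leaving out each adult array in turn put mutant minus wild type between -5.47 and -2.82 for Slc18a2, -4.37 and -1.71 for Cnmd, -2.76 and -2.19 for Tenm4, -2.16 and -0.87 for Spsb1, and 2.76 and 3.33 for Smpx, and Spsb1 in testes minus wild-type ovaries between -1.70 and -0.42. With probe sets averaged, Tenm4 was -1.37 in the adult and -1.05 at P3, and Spsb1 -0.27 at P3. Slc18a2 at P3 was -2.91 with a pseudocount of 1 and -1.81 with 64, where Ephx2 was -2.02. Spsb1 in mutant ovaries minus testes was -0.45 and past the threshold with only those groups in the fit. Counts of genes called moved more. For mutant against wild-type ovaries (1905 higher, 1327 lower), a further 2-fold threshold left 781 and 338, and only those groups in the fit gave 1154 and 577. Leaving out an array gave 1653 to 2158 higher and 867 to 1602 lower. For testes against wild-type ovaries (4864 and 7164), 2-fold left 3241 and 3668, and the filter on low values, which tests fewer genes, 4742 lower. For mutant ovaries against testes (7486 and 4842), 2-fold left 4029 and 3152, and the filter 3127 lower. P3 counts (25 higher, 34 lower) were 9 and 13 with probe sets averaged, 99 and 87 with the filter, and 0 and 0 in limma without an intensity trend (1736 genes at an unadjusted p under 0.05). Leaving out a P3 array gave 0 to 14 higher and 0 to 8 lower, with 1282 genes at an unadjusted p under 0.05 without KO pool 1 and 1119 without KO pool 2. Where a group kept a single array, that array was assumed to vary like the others. A replicate block gave 153 and 152 calls at P3, and in the adult 1615 and 1059 for mutant against wild-type ovaries. The replicate block changed no call of the 6 genes against testes. Deviations of same-numbered samples correlated at -0.003 to 0.079 over 9 pairs, and those of different-numbered samples at -0.068 to 0.067. The numbers were not taken as pairs, and whether they mark a batch was not tested. The causes of these shifts were not tested. Signal over background was not judged, since no detection calls were used.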
